A study of Bos taurus with 11 samples.

Results

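The miRNAs described here are those of the imprinted *DLK1*-*DIO3* region, a long cluster of miRNA genes that lies between the genes *DLK1* and *DIO3*. They were chosen by name, from a list of 51 mature miRNAs. Of these, 49 were among the 796 miRNAs of the count table, and *bta-miR-329b* and *bta-miR-544b* were not among the miRNAs analysed here. The prefix bta- marks *Bos taurus* and is left out below after the first use of a name. At least 1 read was counted for 47 of the 49, and *bta-miR-376a* and *bta-miR-544a* had no read in any library. A further 5 members had between 1 and 9 reads over all libraries together, so that 42 members were tested between breeds, among 550 miRNAs tested in all.

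Small RNA was sequenced from biopsies of the mammary gland (MG) of 5 Holstein and 6 Montbéliarde cows, both dairy breeds, with 1 library per cow. The comparison implied by the design is that between the breeds. All cows were at mid-lactation and received the same diet, no treatment is described, and the biopsy was taken from the rear udder. The cows' ages are not given in the sources used here. The tissue is a mixture of secretory epithelium, stroma, vessels and blood cells, so that fewer cells of a type and less RNA per cell cannot be told apart. Libraries are named here by breed and by the tag in the sample title, which runs from CNLX1 to CNLX9 in Holstein and from CNLX13 to CNLX23 in Montbéliarde. If the tags follow the order of preparation, that order and breed cannot be told apart.

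In mammals the *DLK1*-*DIO3* region is imprinted: the protein-coding genes *DLK1*, *RTL1* and *DIO3* are read from the paternal allele, while the long non-coding RNAs *MEG3* and *MEG8* and the miRNAs are read from the maternal allele. The miRNAs are cut from long maternal transcripts, and several of them lie antisense to *RTL1* and can cleave its mRNA. The region is known for high miRNA levels in placenta, embryo, brain and mesenchymal cells, and in sheep for the callipyge muscle phenotype. In the MG, where the secretory epithelium makes milk, these miRNAs are not among the defining epithelial miRNAs.

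Reads counted on miRNAs, the depth behind the values below, numbered between 7431936 and 16808976 in the Holstein libraries and between 6087865 and 11395785 in the Montbéliarde libraries. The paper reports that, on average, a smaller share of raw reads remained after cleaning in Montbéliarde than in Holstein. Levels are normalized read counts, the raw counts divided by 1 size factor per library. A count of 0 in a library allows a level of up to 3 counts, which is 1.81 normalized reads in the deepest library and nearly 5 in the shallowest. These limits, and the Wilson intervals given below, cover counting error only. Levels of different miRNAs are compared per read, which also depends on how well each miRNA is ligated and amplified in library preparation, and this was not tested. The labelled tissue was checked with its epithelial miRNAs, of which 7 of the 8 listed were in the table and had reads in every library.

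All 49 members were matched to RefSeq miRNA genes, and all of these genes lie between *DLK1* and *DIO3*. The members fall into an upstream group of 8, from *bta-miR-493* to *bta-miR-370*, named the *miR-127* group here, and a downstream group of 41, from *bta-miR-379* to *bta-miR-656*. In the upstream group, 5 genes (*MIR431*, *MIR433*, *MIR127*, *MIR432* and *MIR136*) lie within the interval of *RTL1*, and *MIR432*, *MIR136* and *MIR370* lie within that of *MEG8*. No member gene lies within the annotated interval of *MEG3* or of *MEG9*. The genes *MIR409A* and *MIR409B* are annotated on the same interval, which bears on the values of these miRNAs given below.

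The members differed widely in level. *bta-miR-127*, which in other mammals targets the *RTL1* mRNA, was by far the most abundant, with a mean of 84063 normalized reads over the 11 libraries, and ranked 18 among all miRNAs. *bta-miR-411a*, from the gene next to *MIR379*, followed with a mean of 22495 and rank 38. A further 10 members had means between 100 and 10000, 17 between 10 and 100, 12 between 1 and 10, and 8 below 1. Of all reads counted on the members, 95.5% fell on *miR-127* and *miR-411a*. A read was found in all 11 libraries for 34 members, and between 38 and 45 members were detected per library. Neighbouring members could differ widely: *miR-411a* and *bta-miR-380-3p*, with a mean of 498, are followed along the locus by *bta-miR-411b*, with 5 reads in all.

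**Figure D1:**
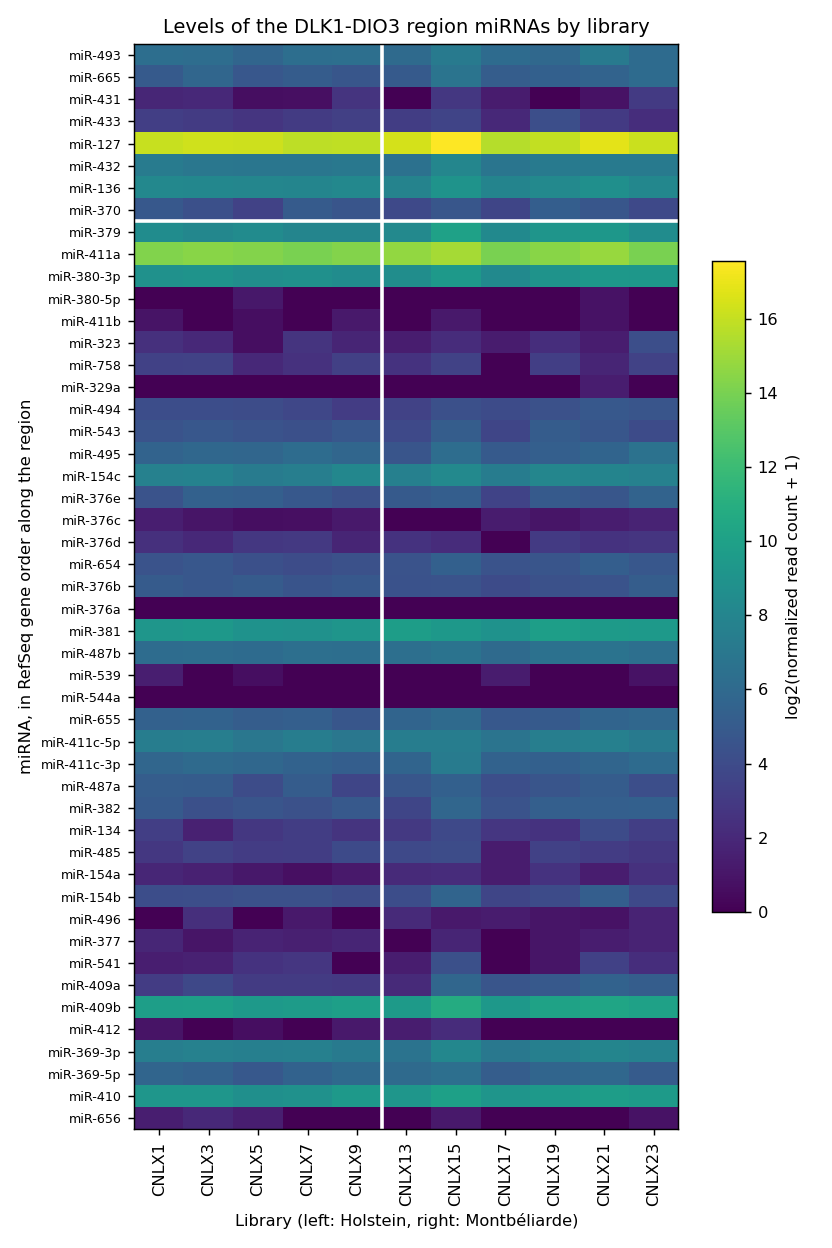
Heat map of log2(normalized read count + 1) for the 49 members (rows, in gene order) in the 11 libraries (columns), with a white line between the breeds and another between the *miR-127* group and the *miR-379* to *miR-656* group. *miR-127* and *miR-411a* stand out in every library, and the other members with means of at least 100 are spread along both groups.

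The members' summed level differed more among the Montbéliarde libraries than among the Holstein libraries. In Holstein, the summed normalized read counts were 91650 in CNLX1, 107443 in CNLX3, 100594 in CNLX5, 76744 in CNLX7 and 84926 in CNLX9. In Montbéliarde, the lowest was 70629 in CNLX17, the median 105418 and the highest 238052 in CNLX15, with 154980 in CNLX21. The breeds thus overlapped, and the lowest library as well as the highest ones were Montbéliarde. The mean was 92271 ± 12195 in Holstein (SD, n = 5) and 127586 ± 61327 in Montbéliarde (SD, n = 6), a ratio of 1.38. Without CNLX15 the Montbéliarde mean was 105493 ± 32256 (SD, n = 5) and the ratio 1.14, so that 1 library accounted for much of the difference. Without both CNLX15 and CNLX21 the mean was 93121 ± 19152.5 (SD, n = 4) and the ratio 1.01. These libraries were left out as the highest ones, which by itself lowers the ratio. Since the members were listed with results of these data known, their sum was not tested.

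As a share of counted reads, the members made up between 0.867% and 0.997% in the Holstein libraries and between 0.647% and 2.08% in the Montbéliarde libraries. In CNLX15 the share was 2.085% (Wilson 95% confidence interval 2.075 to 2.094), against 0.647% (0.642 to 0.653) in CNLX17. The intervals do not overlap, so that counting error is small beside the difference between these libraries. With 1 library per cow, differences of cow, biopsy and library preparation cannot be told apart. The make-up of the sum varied less than its size. *miR-127* gave 74.0% ± 2.14 of the members' summed level in Holstein (SD, n = 5) and 74.7% ± 3.996 in Montbéliarde (SD, n = 6), with a range of 69.9% to 80.8% over all libraries. *miR-411a* gave 15.9% to 24.0% and the remaining members together 3.33% to 6.14%, and CNLX15 had the highest share of *miR-127* and the lowest of the others. Without the 2 leading members, the sum was 4323 ± 381 in Holstein (SD, n = 5) and 5519 ± 1523 in Montbéliarde (SD, n = 6), a ratio of 1.28.

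**Figure D2:**
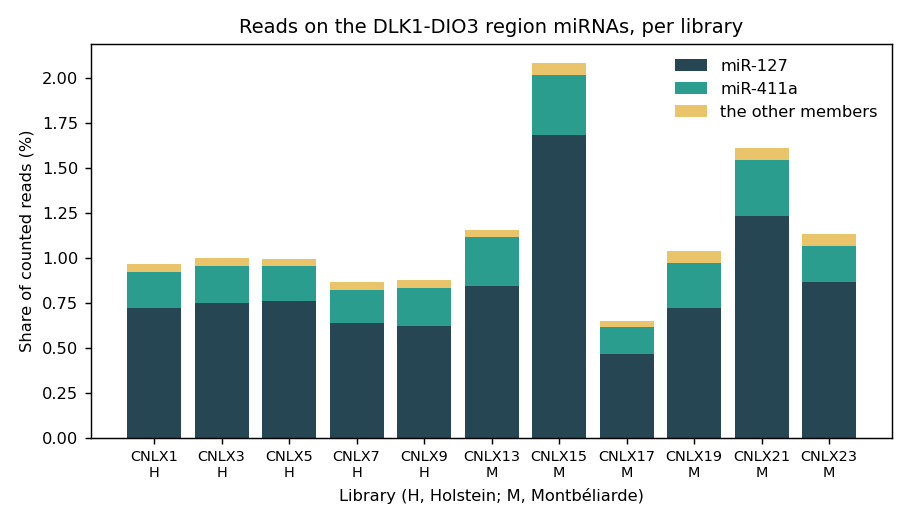
Stacked bars of the share of counted reads (%) that fell on *miR-127*, on *miR-411a* and on the other members in each library. The 5 Holstein libraries lie between 0.867% and 0.997%, while the Montbéliarde libraries run from 0.647% in CNLX17 to 2.08% in CNLX15.

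The levels of miRNAs known to mark other cell types differed among the same libraries. The listed stromal miRNAs (*miR-143*, *miR-145*, *miR-199a-3p*, *miR-199a-5p*, *miR-199b* and *miR-214*), typical of fibroblasts and smooth muscle, gave a summed level of 1513730 to 2305720 normalized reads in the Holstein libraries, against 1928360 to 3870330 in the Montbéliarde libraries. *miR-143* alone made up 99.2% to 99.6% of this sum. The other 5 stromal miRNAs gave 11478 to 15782 in the Holstein libraries, against 12204 to 32234 in the Montbéliarde libraries, with the highest values in CNLX15 (32234) and CNLX21 (19585), the libraries that were also highest for the region's miRNAs. CNLX17, the lowest for the region's miRNAs, had a *miR-143* level of 3109050 that was near that of CNLX21 (3145760), but only 12866 for the other stromal miRNAs. Of these others, *miR-199a-3p* alone gave 18352 in CNLX15 and 10440 in CNLX21. *miR-145* was at 4470 in CNLX15 and 4111 in CNLX21, inside its Holstein range of 2899 to 4785. *miR-199b* in CNLX21 (2296) was also inside its Holstein range, 1682 to 2312. The 7 epithelial miRNAs (the *miR-200* family, *miR-205* and *miR-375*) summed to 186160 in CNLX15 and 189063 in CNLX21, the lowest values, against 384413 to 485656 in Holstein. CNLX17 (339498), CNLX19 (263289) and CNLX23 (312045) were also below every Holstein library here, with region sums of 70629, 91020 and 93423. CNLX13, which came next after CNLX15 and CNLX21 for the region's miRNAs, had the highest epithelial sum, 485711. *miR-141* alone made up 48.7% to 75.2% of the epithelial sum and was lowest in CNLX21, at 108911, and CNLX19, at 128233. Without *miR-141*, CNLX15 (54602) and CNLX21 (80152) were again the lowest. *miR-205* differed from the others, with 20676 in CNLX15 and 27618 in CNLX21, against 14005 to 21238 in Holstein. The sums without *miR-143* or *miR-141* were computed after the values had been seen.

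Of the other marker lists, the 5 leukocyte miRNAs summed to 18031 to 26952 in the Holstein libraries, against 17229 to 39422 in the Montbéliarde libraries, and were also highest in CNLX15. Endothelial miRNAs (2 listed) ranged from 239684 to 330168 over all libraries, erythroid miRNAs (3 listed) from 23429 to 57421 with the maximum in CNLX17, and muscle miRNAs (4 of 5 listed were in the table) from 519 to 1849. No marker in the table was at 0 in all libraries. By edgeR's quasi-likelihood test, 0 markers of any list had a Benjamini-Hochberg adjusted p of 0.05 or less. At an unadjusted p of 0.05 or less, 2 of 6 stromal and 2 of 7 epithelial miRNAs passed and 0 of the others did, where 14.2% of all tested miRNAs passed that threshold and 0.364% the adjusted one. The estimates were higher in Montbéliarde for 5 of 6 stromal, 5 of 5 leukocyte, 3 of 3 erythroid and 3 of 4 muscle miRNAs. They were higher there for 1 of 7 epithelial and 0 of 2 endothelial miRNAs, against 52.4% of all tested miRNAs. What part these differences between libraries have in the levels of the region's miRNAs was not tested.

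**Figure D3:**
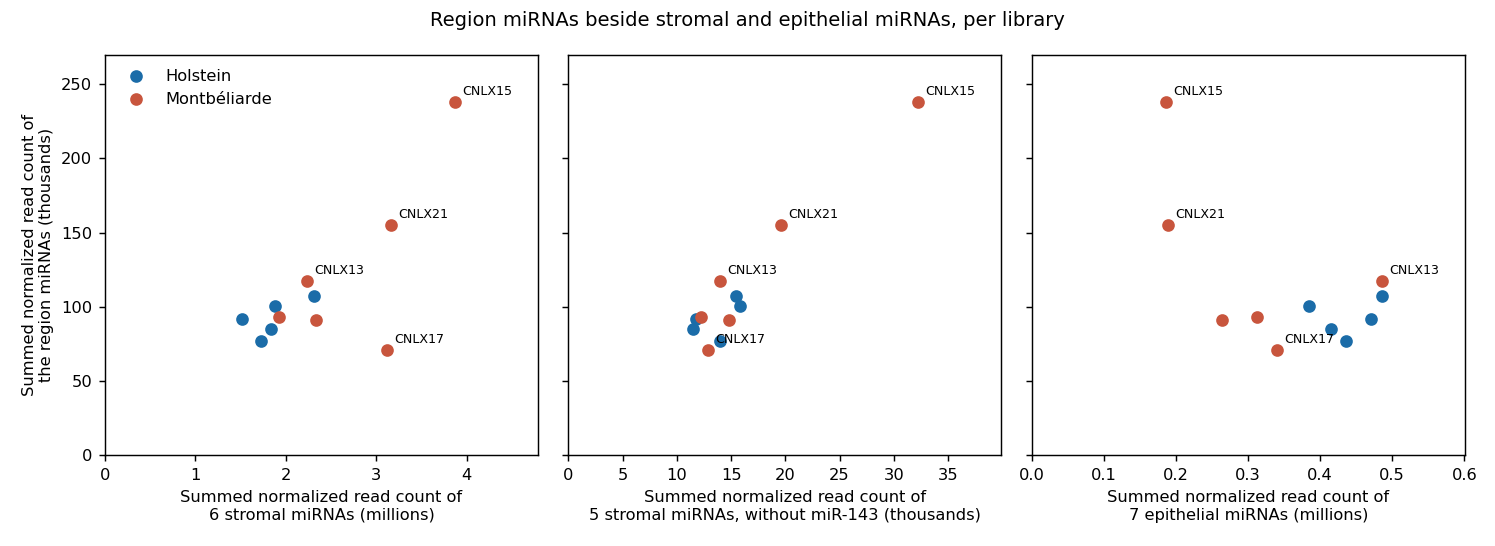
Summed normalized read count of the region's miRNAs (vertical axis) against that of the 6 stromal miRNAs (left), of the 5 stromal miRNAs without *miR-143* (centre) and of the 7 epithelial miRNAs (right), in the units on each axis, with 1 point per library. CNLX15 and CNLX21 have the highest region sums, at 238052 and 154980, and the lowest epithelial sums, at 186160 and 189063. CNLX13, at 117412 next highest for the region, has the highest epithelial sum, at 485711. CNLX17, CNLX19 and CNLX23 also have epithelial sums below every Holstein library, with region sums of 70629, 91020 and 93423.

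The library with the highest level was often the same for different members. Among the 29 members with a mean of at least 10, 21 were highest in CNLX15, 3 each in CNLX21 and CNLX23, and 2 in CNLX19, and none was highest in a Holstein library, where 35.4% of all 356 miRNAs with such a mean were. Over these 356 miRNAs, CNLX15 was the highest library for 110, or 30.9%, and the lowest for 24.2%. CNLX17 was the lowest library for 9 of the 29 members, against 6.46% of all such miRNAs. For the 12 members with a mean of at least 100, the level in CNLX15 was 1.03 (*bta-miR-411c-5p*) to 3.17 times (*miR-379*) the median of the other libraries, with a median of 1.74. In CNLX21 it was 1.15 to 1.87 times that median, and in CNLX17 0.618 to 0.875 times. The coefficient of variation between libraries was larger in Montbéliarde than in Holstein for 11 of these 12, with a median of 33.7% against 12.8%. Over all 214 miRNAs of that level, the medians were 29.6% and 14.8%, so that the spread was wider among Montbéliarde libraries there too.

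The breeds were then compared miRNA by miRNA with edgeR's quasi-likelihood test, with fold changes given as Montbéliarde over Holstein (M/H). None of the 42 tested members had a Benjamini-Hochberg adjusted p of 0.05 or less, where 0.364% of all tested miRNAs (2 of 550) had one. The lowest adjusted p of a member was 0.0964, for *bta-miR-409a*. By DESeq2, 1 member passed this threshold (*miR-409a*, adjusted p = 0.00427), and by limma-voom 0. At an unadjusted p of 0.05 or less, 5 members were higher in Montbéliarde (*miR-409a*, *miR-379*, *bta-miR-410*, *bta-miR-154a* and *bta-miR-381*), against a background of 7.64% of all tested miRNAs, and 0 were higher in Holstein, against 6.55%. This count of 5 depended on single libraries, being 2 without CNLX5, 3 without CNLX7 or CNLX9 and 10 without CNLX17, and without CNLX13 1 member (*miR-409a*) had an adjusted p of 0.05 or less. The count of members separating the breeds without overlap was 0 with Montbéliarde above Holstein, where the background was 0.364%, and 0 with Holstein above Montbéliarde, where it was 1.64%.

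Most estimates pointed the same way, although few were distinguishable from 0. The log2FC (M/H) was positive for 33 of the 42 tested members (78.6%), against 288 of all 550 miRNAs (52.4%). Its median was 0.29 over the members and 0.03 over all tested miRNAs. In the *miR-127* group 7 of 8 were positive and in the *miR-379* to *miR-656* group 26 of 34, with a median of 0.29 in each. The 12 members with a mean of at least 100 all had positive estimates. The matching share over all 214 miRNAs of that level was not computed, so that this count has no background. The members share libraries and precursors and are not independent of each other, and CNLX15 enters all of these estimates. Without that library the median over the members was 0.22, and it was at most 0.40 with any 1 library left out.

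**Figure D4:**
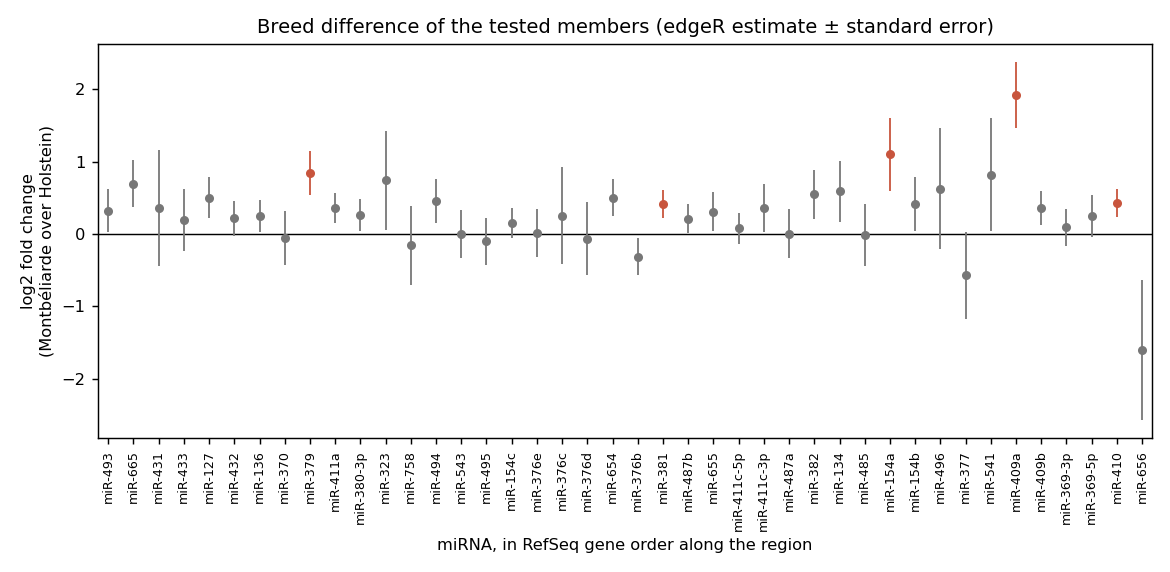
edgeR estimate of the log2 fold change, Montbéliarde over Holstein, with its standard error for the 42 tested members in gene order. The 5 members in red had an unadjusted p of 0.05 or less and none had an adjusted p of 0.05 or less, and 33 of the 42 points lie above 0.

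Within the *miR-127* group, *miR-127* had 68171, 80625, 76950, 56393 and 60088 normalized reads in the Holstein libraries CNLX1, CNLX3, CNLX5, CNLX7 and CNLX9. In Montbéliarde, the lowest level was 50559, the median 78693 and the highest 192280. The breeds overlapped, with CNLX15, CNLX21 (118662) and CNLX13 (85798) above all Holstein libraries and CNLX17 below them. The means were 68445 ± 10438 (SD, n = 5) and 97078 ± 52138 (SD, n = 6), and the log2FC was 0.50 ± 0.28 (SE, adjusted p = 0.412 by edgeR's quasi-likelihood test). The spread between Montbéliarde libraries exceeded the difference between the means.

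*bta-miR-136*, which like *miR-127* lies antisense to *RTL1*, had 298, 278, 269, 249 and 293 normalized reads in Holstein, and a lowest, median and highest level of 227, 291 and 505 in Montbéliarde. The Holstein values lay close together and inside the Montbéliarde range. Its log2FC was 0.25 ± 0.22 (SE, adjusted p = 0.635, edgeR). *bta-miR-432*, from the same antisense stretch, had 155, 125, 120, 119 and 130 reads in Holstein, and 93.3, 145 and 265 as lowest, median and highest level in Montbéliarde, and its log2FC was 0.22 ± 0.24 (SE, adjusted p = 0.726, edgeR). Here CNLX15 stood alone, as the other 5 Montbéliarde libraries reached at most 149. The remaining miRNAs antisense to *RTL1*, *bta-miR-431* and *bta-miR-433*, were at means of 2.44 and 7.55 in Holstein and of 2.61 and 8.45 in Montbéliarde. Levels among neighbours on 1 stretch of the locus thus ranged from a few reads to the highest level of the region, in both breeds.

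At the start of the downstream group, *miR-379* and *miR-411a* are neighbours that are best known from neurons, where the miRNAs of this cluster are induced by activity. *miR-379* had 367, 282, 359, 255 and 253 normalized reads in Holstein, and a lowest, median and highest level of 313, 465 and 1071 in Montbéliarde. CNLX15, CNLX21 (632) and CNLX19 (565) were above all Holstein libraries, whereas CNLX13 (313), CNLX17 (317) and CNLX23 (365) fell within the Holstein range. The log2FC was 0.84 ± 0.31 (SE, unadjusted p = 0.0155, adjusted p = 0.231, edgeR), and it was between 0.62 and 0.96 with each library left out in turn. *miR-411a* had 18844, 22123, 19818, 16324 and 20411 reads in Holstein, and a lowest, median and highest level of 16463, 24572 and 37851 in Montbéliarde, with a log2FC of 0.36 ± 0.21 (SE, adjusted p = 0.426, edgeR). The level of *miR-411a* was 35.3 (CNLX15) to 87.1 times (CNLX13) that of its neighbour *miR-379*. These adjacent miRNAs thus did not keep a fixed ratio between libraries.

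Further along the region, *miR-380-3p* had 476, 521, 415, 457 and 378 normalized reads in Holstein, and 327, 583 and 689 as lowest, median and highest level in Montbéliarde. Its log2FC was 0.27 ± 0.22 (SE, adjusted p = 0.603, edgeR). *miR-381* had 599, 641, 498, 479 and 580 reads in Holstein, and 497, 747 and 910 as lowest, median and highest level in Montbéliarde. Unlike most members, *miR-381* was highest in CNLX19 and not in CNLX15, and CNLX13, with 878 reads, came next. Its log2FC was 0.41 ± 0.19 (SE, unadjusted p = 0.04996, adjusted p = 0.348, edgeR). *bta-miR-154c*, a member of the *miR-154* family, had 206, 221, 161, 177 and 280 reads in Holstein, against 168, 222 and 306 in Montbéliarde (lowest, median and highest), and its log2FC was 0.15 ± 0.21 (SE, adjusted p = 0.789, edgeR). *miR-154a* had 28 reads in all libraries together, with 0.659 to 2.63 normalized reads in Holstein and 1.501 to 4.84 in Montbéliarde. At these levels most of its values lie at or under the limit that a count of 0 allows, and its log2FC of 1.10 ± 0.51 (SE, unadjusted p = 0.0463, adjusted p = 0.340, edgeR) rests on few reads.

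Near the downstream end, *miR-410* had 586, 589, 427, 475 and 685 normalized reads in Holstein, and a lowest, median and highest level of 559, 734 and 987 in Montbéliarde. Of the Montbéliarde libraries, 4 lay above all Holstein libraries, and CNLX13 (600) and CNLX17 (559) did not. The log2FC was 0.43 ± 0.19 (SE, unadjusted p = 0.0408, adjusted p = 0.325, edgeR). *miR-410* is, like *miR-379*, a name-giving end of the cluster known in the mouse as *miR-379*/*miR-410*.

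*bta-miR-409b* and *miR-409a*, from the shared interval, differed from each other in level and in breed difference. *miR-409b* had 927, 946, 695, 783 and 949 normalized reads in Holstein, and 652, 1083 and 1779 as lowest, median and highest level in Montbéliarde, with a log2FC of 0.36 ± 0.23 (SE, adjusted p = 0.479, edgeR). *miR-409a*, which the study lists among the differing miRNAs on these same libraries, had 7.90, 13.3, 7.24, 7.26 and 6.52 reads in Holstein. In Montbéliarde, *miR-409a* was at 3.33 in CNLX13, 53.7 in CNLX15, 24.0 in CNLX17, 29.05 in CNLX19, 44.8 in CNLX21 and 34.5 in CNLX23. Of the Montbéliarde libraries, 5 were thus above every Holstein library, and CNLX13, with 2 reads counted, was below every one. The CNLX13 value lies under the limit that a count of 0 allows there, nearly 5 normalized reads. At so few reads its place beside the lower Holstein values is uncertain. The means were 8.44 ± 2.76 (SD, n = 5) and 31.6 ± 17.5 (SD, n = 6), and the log2FC was 1.92 ± 0.46 (SE, unadjusted p = 0.000857, adjusted p = 0.0964, edgeR).

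Without CNLX13, the *miR-409a* estimate was 2.13 on the log2 scale, with an adjusted p of 0.00506 by edgeR's quasi-likelihood test. CNLX13 was the only Montbéliarde library below the Holstein ones, so that leaving it out was bound to widen the difference. With any other library left out, the adjusted p was between 0.0751 (without CNLX23) and 0.309 (without CNLX9) by the same test. The counts of *miR-409a* were low, between 2 and 53 reads per library. Relative to *miR-409b* in the same library, *miR-409a* was at 0.852%, 1.41%, 1.04%, 0.927% and 0.687% in Holstein. In Montbéliarde this percentage was 0.437 in CNLX13, 3.02 in CNLX15, 3.69 in CNLX17, 2.66 in CNLX19, 3.55 in CNLX21 and 3.21 in CNLX23. The ranges of the breeds overlapped through CNLX13, while the other Montbéliarde libraries lay above every Holstein library. How often other pairs of miRNAs show such a pattern was not computed, so that it has no background. CNLX17, with the lowest summed level of the region, and CNLX15, with the highest, both lay above every Holstein library. Since *miR-409a* was already known to differ on these libraries, the ratio is given as a description with no test. How reads that match more than 1 miRNA or a mismatched one were counted is not given in the sources used here.

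**Figure D5:**
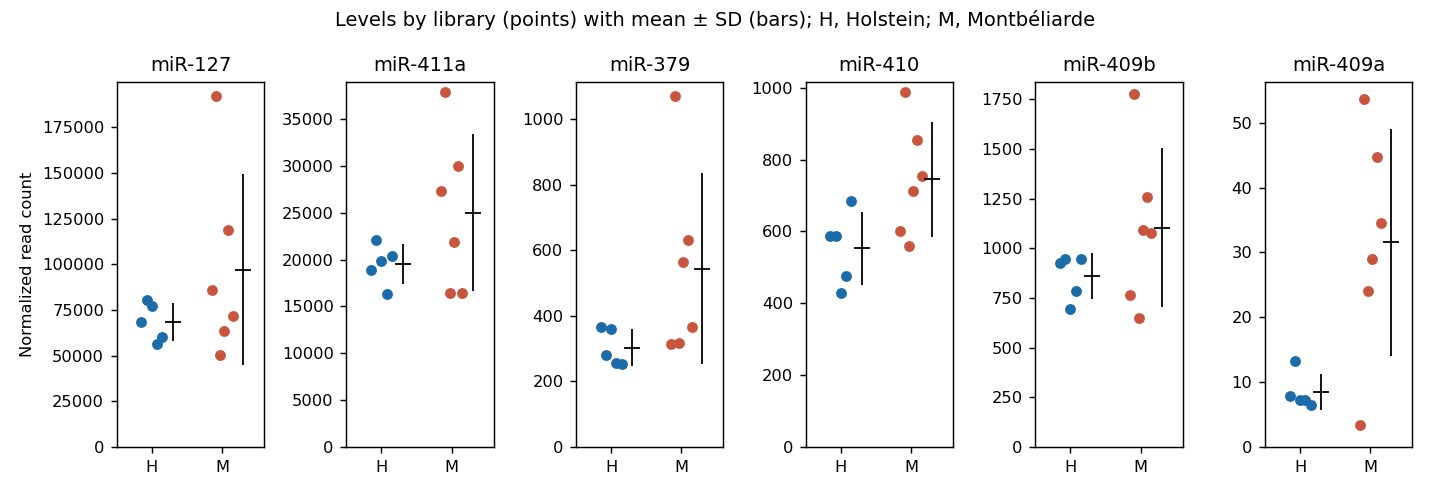
Normalized read counts of *miR-127*, *miR-411a*, *miR-379*, *miR-410*, *miR-409b* and *miR-409a* by library (points), with mean ± SD per breed (black bars); each panel has its own vertical axis, starting at 0. The breeds overlap in every panel, and for *miR-409a* the overlap comes from 1 Montbéliarde library, CNLX13, at 3.33.

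The table lists 3 members with both arms of the hairpin, of which usually 1 arm is loaded into the silencing complex and the other is degraded. For *miR-369* the 3p arm was the more abundant. *bta-miR-369-3p* had 179, 205, 186, 199 and 147 normalized reads in Holstein, and 102, 206 and 279 as lowest, median and highest level in Montbéliarde, with a log2FC of 0.09 ± 0.25 (SE, adjusted p = 0.894, edgeR). *bta-miR-369-5p* had 50.9, 43.0, 27.2, 44.2 and 62.5 reads in Holstein and 31.4 to 83.7 in Montbéliarde, with a log2FC of 0.25 ± 0.29 (SE, adjusted p = 0.754, edgeR). The ratio of the 3p to the 5p arm ranged from 1.55 to 6.98 between libraries, with a geometric mean of 4.08 in Holstein and 3.54 in Montbéliarde. The mean log2 ratio was 2.03 ± 0.57 in Holstein (SD, n = 5) and 1.82 ± 0.70 in Montbéliarde (SD, n = 6), and the difference of -0.20 was smaller than the SD in either breed (two-sided exact permutation test, p = 0.636, Benjamini-Hochberg adjusted p = 0.693 over 2 pairs).

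For *miR-411c* the 5p arm was the more abundant, the opposite of *miR-369*. *miR-411c-5p* had 169, 183, 126, 175 and 124 normalized reads in Holstein, and 107, 172 and 198 as lowest, median and highest level in Montbéliarde, with a log2FC of 0.08 ± 0.21 (SE, adjusted p = 0.894, edgeR). *bta-miR-411c-3p* had 55.3, 67.6, 58.5, 45.5 and 36.5 reads in Holstein. In Montbéliarde it was at 157 in CNLX15 and between 40.7 and 68.2 in the other libraries, with a log2FC of 0.36 ± 0.33 (SE, adjusted p = 0.649, edgeR). The ratio of the 3p to the 5p arm was 0.901 in CNLX15 and otherwise between 0.229 and 0.469. The mean log2 ratio was -1.56 ± 0.32 in Holstein (SD, n = 5) and -1.38 ± 0.72 in Montbéliarde (SD, n = 6), which did not differ beyond the spread (two-sided exact permutation test, p = 0.693, Benjamini-Hochberg adjusted p = 0.693 over 2 pairs). For *miR-380*, the 5p arm had 3 reads against 5867 of the 3p arm, or 0.0511% of both (Wilson 95% confidence interval 0.0174 to 0.150), so that its ratio was not tested.

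The other 26 tested members had means between 0.788 and 84.9 normalized reads. Their log2FC ranged from -1.60 to 0.82, was positive for 17 and negative for 9, and had an unadjusted p between 0.0510 and 0.997 (adjusted p between 0.348 and 0.999, edgeR's quasi-likelihood test). All 9 negative estimates of the 42 tested members were among these. The members of the *miR-376* family, known in other mammals for A-to-I editing of their precursors, varied in level: *bta-miR-376e* and *bta-miR-376b* had means of 30.04 and 27.9 in Holstein and of 30.02 and 22.15 in Montbéliarde, *bta-miR-376d* and *bta-miR-376c* had a few reads per library, and *miR-376a* had none. *bta-miR-134*, known to act on *LIMK1* in dendritic spines of neurons, had means of 5.997 ± 2.63 in Holstein (SD, n = 5) and 9.18 ± 4.31 in Montbéliarde (SD, n = 6). The members too low to be tested were *bta-miR-412* (7 reads in all), *miR-411b* and *bta-miR-539* (5 reads each), *bta-miR-380-5p* (3 reads) and *bta-miR-329a* (2 reads).

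Between the outermost members, RefSeq places 58 miRNA genes, and 9 further miRNAs of the count table have their gene there although they were not in the list. Of these, 8 were tested, and 0 had an unadjusted p of 0.05 or less by edgeR's quasi-likelihood test, the lowest being 0.107 (adjusted p = 0.419) for *bta-miR-3578*. That threshold was met by 14.2% of all tested miRNAs, so that a count of 0 among 8 says little. Their log2FC was positive for 4 of 8, with a median of 0.03, against 0.29 over the 42 members. They were low, with means up to 57.9 normalized reads for *bta-miR-299*. Counts of *miR-3578* (336 reads) and of the member *bta-miR-382* (350 reads) differed by at most 3 reads in any library, and those of *miR-299* and *bta-miR-299-2* by at most 6. The estimates within each pair were close too, with a log2FC of 0.57 for *miR-3578* and 0.55 for *miR-382*. For *miR-299* and *miR-299-2* they were -0.10 and -0.07. Whether these pairs share reads was not tested. The 8 may thus not be separate measurements, which limits the comparison of their signs and median with those of the members.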

How the data were processed

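The authors deposited raw counts of reads per mature miRNA and library, without normalization. According to the methods, reads of 50 bases from TruSeq small RNA libraries (2000 ng of total RNA, 13 cycles of PCR) were trimmed, kept at 15 to 40 nt and quantified with ncPRO-seq and miRDeep2 (minimum score 0) against an earlier bovine assembly than the RefSeq one used here for gene order, and miRBase 22.1. No coordinates are printed for that reason. The submitters' processing notes name bcl2fastq 2.17.1.14 and DESeq2 1.18.1. The authors also deposited a signal, the normalized read counts, in which each library's counts are divided by its DESeq2 size factor. Their breed means, log2 fold changes and p-values were deposited too and were not used.

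Breeds, taken from the sample labels, were compared on the counts of the 550 miRNAs with at least 10 counts in all, with edgeR 4.0.16 in R 4.3.3 (TMM, glmQLFit with robust fitting, glmQLFTest) and Benjamini-Hochberg adjustment over all 550. The standard error was derived from the estimate and the F statistic. Levels are the authors' normalized read counts. Arm ratios used counts with a pseudocount of 1 and exact permutation tests in scipy 1.17.1. The alternatives were DESeq2 1.42.0, limma-voom (limma 3.58.1), other scalings, filters, a depth covariate, known miRNAs only and each library left out. With a library left out, the filter of 10 counts was applied again to the remaining ones. The fit was also run on simulated counts whose breed differences were larger than those estimated for the members. That run does not tell how well differences of the members' size are found. Each library is of a different cow, and no libraries are paired between breeds.

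Named with values were the 12 members with the highest mean, those with an unadjusted p of 0.05 or less, the miRNAs listed with both arms, *miR-409a* and *miR-409b*. Members named for a low or absent count, the miRNAs antisense to *RTL1*, the *miR-376* family and *miR-134* were added after the values were seen. The members, lists and alternatives were chosen with earlier results of these data known.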

Additional observations from a re-analysis of the deposited data

Results flagged for a closer look

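The 17 named miRNAs, the members' summed level and the arm ratios of *miR-369* and *miR-411c* were examined in each breed, which makes 40 groups of libraries. In 5 of them a library's distance from the next one exceeded Dixon's 95% limit, where chance gives about 1 in 20, or 2. In Montbéliarde, *bta-miR-432* was at 264.92 normalized reads in CNLX15, with the other libraries between 93.3 and 149. *bta-miR-411c-3p* was at 157.453 in CNLX15, with the others between 40.7 and 68.2. In Holstein, *bta-miR-409a* was at 13.3081 in CNLX3, with the others between 6.52 and 7.90. *bta-miR-380-5p* was at 1.20679 in the Holstein library CNLX5 and at 0.844911 in the Montbéliarde library CNLX21, and at 0 in all others. With all other libraries at 0, any single read exceeds the limit, so that these 2 groups carry no information, and 3 of the other 38 groups exceeded it.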

How the results depend on the processing

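Over the miRNAs tested in each setting, 550 in the main fit, the number with an adjusted p of 0.05 or less was 2 by edgeR. It was 21 by DESeq2, 0 with DESeq2's size factors in edgeR, 1 with library totals only, and 0 to 6 with each library left out. Among the members it was 0 by edgeR, 1 by DESeq2 (*bta-miR-409a*, log2FC 1.93), and 0 to 1 with each library left out, the 1 again being *bta-miR-409a*, without CNLX13. Over these removals its log2FC was 1.80 to 2.16 and its adjusted p 0.00506 to 0.309. The number of members with an unadjusted p of 0.05 or less was 5, against 3 with library totals only, 2 with no filter beyond 1 count, and 2 (without CNLX5) to 10 (without CNLX17) with 1 library left out; it was 3 without CNLX7 and 3 without CNLX9. The log2 ratio of the breeds' summed levels was 0.47, and 0.19 (without CNLX15) to 0.59 with each library left out. The log2FC of *bta-miR-411c-5p* was -8.81e-05 without CNLX9 and up to 0.19 with others left out. The arm difference ranged from -0.41 to 0.034 for *miR-369*, positive without CNLX13, and from -0.074 to 0.32 for *miR-411c*, negative without CNLX15. The cause of these changes was not tested. No other estimate of the 16 named members fitted changed its direction or its side of the adjusted threshold. Several changed their side of the unadjusted threshold. By edgeR, *bta-miR-127*, *bta-miR-411a* and *bta-miR-409b* met it without CNLX17 but not with all libraries. *bta-miR-410*, *bta-miR-381* and *bta-miR-154a* met it with all libraries but not without CNLX7. No paired analysis was possible because each library is of a different cow, and the replicate numbers, given in accession order, only name the libraries. With 5 and 6 cows, the spread between Montbéliarde libraries limits what can be told apart, and below about 10 reads in all no test was made.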
